A study of Rattus norvegicus with 2 samples.

Results

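The mitochondrial ribosome and the machinery that brings proteins into mitochondria were examined in the rat line RBL-2H3, basophilic leukaemia cells that serve as a model of mast cells. Members were all genes whose symbol begins with Mrpl or Mrps and a number, the proteins of the mitochondrial ribosome, or with Timm or Tomm and a number, the translocases of the inner and outer membrane. This gave 93 genes of 15409 symbols, of which 72 were Mrpl or Mrps genes and 21 were Timm or Tomm genes. The saline group is 1 library of cells given normal saline. The treated group is 1 library of cells given PM2.5, which is fine particulate matter, together with IgE and DNP-HSA, an antibody and its antigen that crosslink the IgE receptor. Whether IgE and antigen were part of the saline treatment, and the exposure time and dose unit, are not in the labels. Since each group is a single library, differences could not be checked against replicates and were not tested.

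Mitochondria build a few respiratory chain subunits on their own ribosome, whose RNA is mitochondrial but whose proteins are all encoded in the nucleus and imported. Nearly all other mitochondrial proteins are made in the cytosol and enter through the TOM complex of the outer membrane. From there the TIM23 complex takes proteins with a presequence, the TIM22 complex takes carrier proteins, and small TIM chaperones escort hydrophobic proteins across the intermembrane space.

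Values are normalised counts, that is reads divided by a size factor for each library and summed over the transcripts of a symbol. A log2 fold is the treated over the saline value after 1 was added to both, and a gene was called higher or lower when it differed at least 2-fold. Intervals in brackets are exact Clopper-Pearson 95% intervals of the ratio without the added 1. They cover counting error only and assume independent reads, although reads are not independent molecules. In bulk RNA, fewer expressing cells and less RNA per cell cannot be told apart. The libraries held 7279671 reads (saline) and 3964955 reads (treated), so the saline library was 1.84 times as deep. The median Mrpl or Mrps gene had 138 saline and 78.5 treated reads, and the median translocase gene had 217 and 136. All 8 listed mast cell and basophil markers with a row had reads in both libraries, and the listed lymphocyte and granulocyte markers had no row. Of the macrophage markers, Csf1r had 1401 saline and 286 treated reads, Cd68 had 19 and 0, and Adgre1 had 48 and 23. Of the fibroblast markers, Col3a1 had 241 and 168 reads and Col1a1 had 16 and 15. Summed normalised counts were 1273 saline and 510 treated for the macrophage markers, and 223 and 302 for the fibroblast markers. Their part in the differences below was not tested.

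The promoters of 4 of the genes called higher or lower are shown first, because motifs of regulators of mitochondrial genes can be read in them. Mrpl14, called as well, had no match in the 250 bases before either of its 2 annotated starts and is not shown. A match that reaches past 1 of these starts is given below. For Mrpl13, the remaining called gene, no promoter was found, so it could not be searched. Each stretch shown is the 250 bases before an annotated start in RefSeq on the GRCr8 build, read in the direction of the gene. Capitals mark matches to 4 motifs searched on both strands: GCGC and TGCGC parted by any 1 base for NRF1, CCGGAAG for the ETS family that includes GABPA, AAGATGGC for YY1 and CACGTG, the E-box bound by Myc. The Tomm7 stretch lies at chr4:12197253-12197502 on the plus strand. The other stretches lie on the minus strand, at chr18:80594238-80594487 for Timm21, chr14:9122907-9123156 for Mrps18c and chr1:31795122-31795371 for Mrpl36.
Tomm7: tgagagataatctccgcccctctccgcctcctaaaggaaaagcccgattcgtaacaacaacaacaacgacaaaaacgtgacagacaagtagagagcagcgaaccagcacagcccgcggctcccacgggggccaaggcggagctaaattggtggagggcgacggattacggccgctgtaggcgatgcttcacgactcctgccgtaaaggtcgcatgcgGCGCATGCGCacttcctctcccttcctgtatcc
Timm21: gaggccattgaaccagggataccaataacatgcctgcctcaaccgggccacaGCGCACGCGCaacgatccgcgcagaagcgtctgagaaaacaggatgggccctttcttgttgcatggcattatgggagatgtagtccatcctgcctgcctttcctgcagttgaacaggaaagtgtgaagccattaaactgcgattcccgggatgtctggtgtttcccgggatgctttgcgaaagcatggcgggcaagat
Mrps18c: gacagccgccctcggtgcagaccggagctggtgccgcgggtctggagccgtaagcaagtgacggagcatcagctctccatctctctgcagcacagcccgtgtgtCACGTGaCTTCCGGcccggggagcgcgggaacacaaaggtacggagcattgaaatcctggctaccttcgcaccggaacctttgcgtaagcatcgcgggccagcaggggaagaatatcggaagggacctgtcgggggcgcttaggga
Mrpl36: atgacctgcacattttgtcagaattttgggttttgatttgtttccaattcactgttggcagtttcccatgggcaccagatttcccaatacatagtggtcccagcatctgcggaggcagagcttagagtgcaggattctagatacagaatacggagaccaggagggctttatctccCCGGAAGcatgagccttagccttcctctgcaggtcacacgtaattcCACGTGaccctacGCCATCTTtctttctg
The NRF1 motif began 33 bases before the start of Tomm7 and 198 bases before that of Timm21. Mrps18c held an E-box and an ETS motif side by side, beginning 146 and 139 bases before its start. Mrpl36 held an ETS motif, an E-box and a YY1 motif beginning 75, 29 and 16 bases before its start. A match is a description of letters, not a bound site.

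Promoter windows of 300 bases, from 250 before to 50 after a start, were found for 78 of the 93 members, 1 of them (Mrps36) through a synonym, and gave 80 windows. AAGATGGC occurred in 25% of the 60 Mrpl and Mrps windows and in 10% of the 20 translocase windows, against 3.17% of all 33469 windows and 6.46% of those of well covered symbols, whose normalised counts averaged 50 or more. The ETS motif occurred in 31.7% of Mrpl and Mrps windows and 30% of translocase windows, against 8.75% of all windows and 20.1% of the well covered ones. For the NRF1 motif the shares were 13.3% and 15%, against 4.25% and 11.4%. They include 1 Mrpl14 window, whose match reaches into the 50 bases after the start. For the E-box the shares were 8.33% and 15%, against 6.42% and 9.86%. These shares were not tested. In 11 of the 15 Mrpl and Mrps matches AAGATGGC began at the start or within 30 bases after it. Stretches of 24 bases around it are shown for 5 members named below, read on the strand that spells the motif, with the motif in capitals. They lie on GRCr8 at chr7:32028488-32028511 for Mrpl42, chr1:164351538-164351561 for Mrpl48, chr20:2843026-2843049 for Mrps18b, chr2:32474225-32474248 for Mrps27 and chr1:92710271-92710294 for Timm50. The plus strand is read for Mrps18b and Mrps27 and the minus strand for the others.
Mrpl42: attgaagcAAGATGGCgagcgcgc
Mrpl48: cggtaacaAAGATGGCaactaata
Mrps18b: tgtgcgacAAGATGGCtgcctcct
Mrps27: tacgctccAAGATGGCggccccca
Timm50: gtcagcgcAAGATGGCggcctcgg
Genes with this motif did not share a direction. The 15 Mrpl and Mrps genes that held it ranged from -6.05 (Mrpl36) to 0.90 (Mrpl42) in log2 fold, 7 above 0 and 8 below. Among all members with a promoter, the median log2 fold was -0.05 in the 17 genes with AAGATGGC and 0.18 in the 61 without.

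Genes for the mitochondrial ribosome were mostly at similar levels in both libraries. Of the 72 Mrpl and Mrps genes, the treated library had 3 at 2-fold or more above saline, 1 at 2-fold or more below, and 68 within 2-fold. Over all 15097 symbols that reached a normalised count of 1 in either library, 12.1% were at least 2-fold higher and 19.1% at least 2-fold lower. Among the 9041 with a mean of at least 50, the shares were 6.85% and 7.4%, and 82 of the 93 members reach that mean. The shares of the 72 genes called in either direction lay below these backgrounds. The median log2 fold was 0.07, against -0.07 over all symbols and -0.03 over the well covered ones. The log2 fold lay within 0.5 of 0 in 50 of the 72 genes. Their lower and upper quartiles were -0.21 and 0.47. These were -0.48 and 0.42 in the well covered symbols, and -0.72 and 0.51 over all symbols. The interval held 0 in 41 of the 72 genes. It lay wholly above 0 in 20 genes and wholly below 0 in 11, more of them than were called. Among the 9041 well covered symbols, 2860 intervals lay wholly above 0, 3162 lay wholly below and 3019 held 0. Over all 15097 symbols these numbers were 3440, 4043 and 7614. The share of intervals without 0 was thus smaller in the Mrpl and Mrps genes than in both backgrounds. This share depends on read depth, which was not matched. Median saline and treated reads were 138 and 78.5 in the Mrpl and Mrps genes. They were 294 and 152 in the well covered symbols, and 105 and 54 over all symbols.

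**Figure D1:**
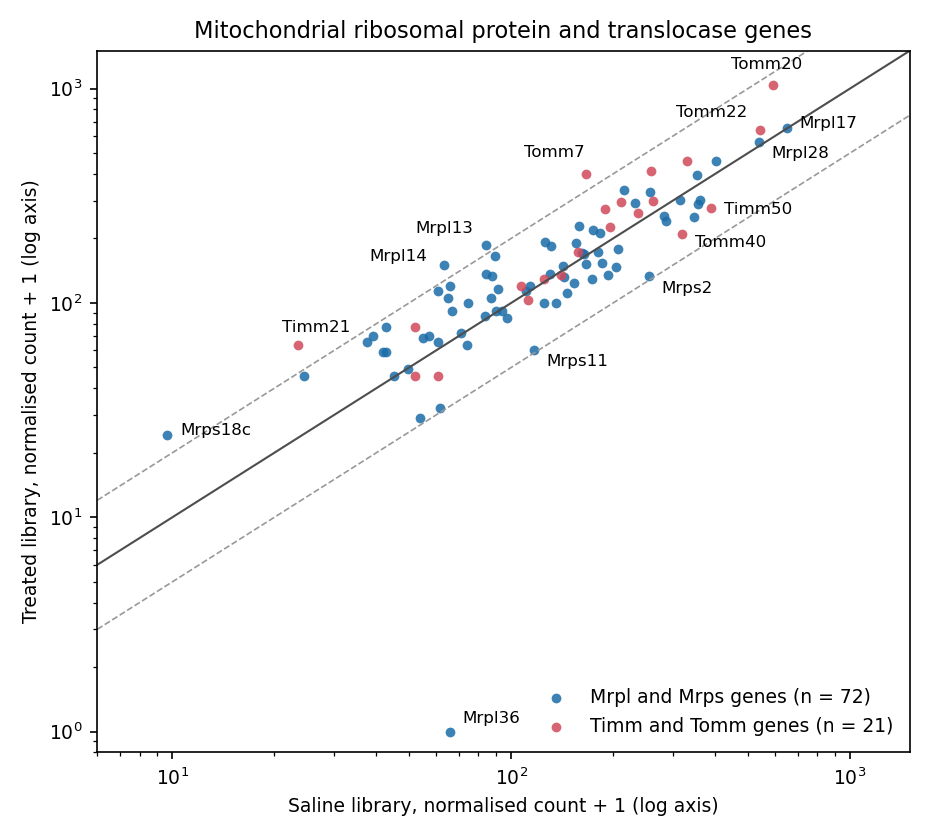
Normalised count plus 1 of each member in the saline library (x axis, log scale) and the treated library (y axis, log scale), 1 point per gene, for 72 Mrpl and Mrps genes and 21 Timm and Tomm genes. The solid line marks equal levels and the dashed lines a 2-fold difference. Most points lie between the dashed lines, Mrpl36 lies at 0 in the treated library, and Tomm7, Timm21, Mrpl13, Mrpl14 and Mrps18c lie above the upper line.

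The 3 genes called higher were Mrpl13, Mrpl14 and Mrps18c. Mrpl13, a large subunit protein with a bacterial counterpart, had normalised counts of 83.3 in the saline and 185 in the treated library, a log2 fold of 1.14 (0.75 to 1.56, 96 and 112 reads). Mrpl14, another conserved large subunit protein, had 62.4 and 148.6, a log2 fold of 1.24 (0.79 to 1.72). Its call rested on 1 transcript, as described below. Mrps18c, 1 of several related small subunit proteins in the Mrps18 family, had 8.67 and 23.1, a log2 fold of 1.32 with a wide interval (0.14 to 2.75, 10 and 14 reads). The family did not share its value, with Mrps18a at -0.06 (-0.42 to 0.28) and Mrps18b at -0.30 (-0.56 to -0.04). Products of Mrps18a and of Mrps30 sit in the large subunit in spite of their names.

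Mrpl36, the smallest conserved protein of the large subunit, was the only Mrpl or Mrps gene called lower. It had a normalised count of 65.05 from 75 reads in the saline library and none from 0 reads in the treated library. Against a floor of 3 treated reads, a normalised count of 4.95, it was at least 13.1-fold lower. The exact interval, which also takes in the counting error of the saline reads, allows a log2 ratio as high as -3.38, a smaller difference than that. The fitted value of -6.05 depends on the added 1 and is no bound.

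Other genes at the low end stayed within 2-fold. Mrps11, a small subunit protein, had normalised counts of 115 and 59.5, a log2 fold of -0.94 (-1.53 to -0.42). Mrps2, of the same subunit, had 254 and 132, a log2 fold of -0.94 (-1.32 to -0.58). The large subunit genes Mrpl21 and Mrpl35 had 60.7 and 31.4 (-0.93) and 52.9 and 28.1 (-0.89). Mrps27 stood at -0.52 (-0.91 to -0.15). These 5 genes have intervals below 0. At the high end within 2-fold, Mrpl42 stood at 0.90 (0.10 to 1.75), Mrpl48 at 0.90 (0.40 to 1.41) and Mrps31 at 0.89 (0.49 to 1.31), all with intervals above 0. Of the 6 genes with the highest mean counts, 5 had intervals that held 0. Mrpl17 had normalised counts of 650.5 and 652, a log2 fold of 0.00 (-0.18 to 0.18), and Mrpl28 had 536 and 565, at 0.08 (-0.12 to 0.27). Mrps23 was at 0.20 (-0.02 to 0.41), Mrpl45 at 0.16 (-0.08 to 0.40), and Mrpl10, at the base of the stalk that binds translation factors, at -0.25 (-0.51 to 0.01). The other one, Mrps18b, is given above and lay below 0. No transcript lengths were used, so levels were not compared between genes.

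Neither the subunit named in the symbol nor the evolutionary origin of the protein set the groups far apart. The 43 Mrpl genes had a median log2 fold of 0.04 and the 29 Mrps genes 0.20, while their summed counts gave log2 ratios of 0.08 (0.02 to 0.13) and 0.05 (-0.02 to 0.12). The 41 measured proteins listed as having a bacterial counterpart had a median of 0.08, with 3 called higher and 1 lower. The 28 listed as having none had a median of 0.05, ranging from -0.52 to 0.90, and none was called. Mrps18a, Mrps18b and Mrps36 were in neither list. The 6 measured ribosomal proteins under other symbols had a median of -0.06 and none was called. Of these, Ptcd3 was at 0.17 (-0.09 to 0.43), Aurkaip1 at -0.32 (-0.53 to -0.11) and Gadd45gip1 at -0.52 (-0.89 to -0.17). Mrps36 (0.10), whose product belongs to the oxoglutarate dehydrogenase complex in spite of its name, was kept because its symbol meets the rule.

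Among the translocases, 15 of 21 genes had a log2 fold above 0, as did 45 of the 72 Mrpl and Mrps genes. The background was 6895 of all 15097 symbols and 4368 of the 9041 well covered ones. Of the 21, 2 were at least 2-fold higher and none was lower, and the share called higher lies between the 6.85% of well covered and the 12.1% of all symbols. Their median log2 fold was 0.18, 0.11 above that of the Mrpl and Mrps genes. Intervals lay wholly above 0 in 8 genes and wholly below 0 in 2. They held 0 in 11 genes, a larger share than among the well covered symbols and close to that over all symbols. Median saline and treated reads were 217 and 136 in the translocases, against 294 and 152 in the well covered symbols. Summed over the group, translocase normalised counts were 4499 in the saline and 5657 in the treated library, a log2 ratio of 0.33 (0.27 to 0.39). For the Mrpl and Mrps genes the sums were 10770 and 11291, a log2 ratio of 0.07 (0.03 to 0.11), and these 2 intervals did not overlap. Over all 15097 symbols the summed log2 ratio was 0.056 (0.054 to 0.058), inside the Mrpl and Mrps interval. The lack of overlap between the 2 groups depended on Tomm20 and Tomm7. Without these genes, a choice made after the values were seen, the translocase ratio was 0.17 (0.104 to 0.246). Its interval then overlapped that of the Mrpl and Mrps genes, which reached 0.111, at its lower end only. No gene was left out of the Mrpl and Mrps group.

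Within the TOM complex the channel and the other subunits differed in direction. Tomm40, the channel itself, had normalised counts of 318 in the saline and 208 in the treated library, a log2 fold of -0.61 (-0.92 to -0.32). Its paralogue Tomm40l had 111 and 102, at -0.12 (-0.58 to 0.33). Tomm7, a small subunit that modulates assembly of the complex, had 166 and 398, the highest value of the complex at 1.26 (0.98 to 1.55, 191 and 241 reads). The ratio of Tomm7 to Tomm40 reads went from 0.52 to 1.91, a log2 change of 1.88 (1.46 to 2.29) that does not depend on the scaling of the libraries. The pair was chosen after the values were seen, as the highest and lowest genes of the complex, so this change is a description. Tomm20, the receptor for presequences, had 591 and 1034, at 0.81 (0.65 to 0.97). Tomm70, the receptor for carrier proteins, had 329 and 456, at 0.47 (0.24 to 0.70). Tomm22, the central receptor, was at 0.25 (0.06 to 0.43), and the small subunits Tomm6 and Tomm5 were at 0.53 (0.23 to 0.83) and 0.21 (-0.11 to 0.52). Of the 8 measured TOM genes, 6 lay above 0 and the median was 0.36. Tomm34, a cytosolic co-chaperone with a similar name, was at 0.15 (-0.14 to 0.44).

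The TIM23 complex showed a similar spread. Timm21, which joins the translocase to the TOM complex and to the respiratory chain, had normalised counts of 22.6 and 62.8, a log2 fold of 1.44 (0.72 to 2.26) on only 26 and 38 reads. Timm44, which tethers the import motor to the channel, had 257 and 409.6, at 0.67 (0.42 to 0.92). Timm50, the receptor that takes over incoming presequences, had 389 and 276, at -0.49 (-0.76 to -0.23). The ratio of Timm44 to Timm50 reads went from 0.66 to 1.49, a log2 change of 1.17 (0.80 to 1.53), again for a pair chosen after its values were seen. The paralogues Timm17a and Timm17b, alternative subunits of the complex, were at 0.48 (0.20 to 0.77) and -0.05 (-0.46 to 0.34), and the ratio of the first to the second went from 1.51 to 2.20 (log2 change 0.54, interval 0.05 to 1.04). Of 6 pairs of related members compared in this way, 2 had intervals without 0, the other being Mrps18b over Mrps18c (-1.71, interval -3.07 to -0.40). Timm23 was not analysed here.

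Past the outer membrane, no interval of a gene of the carrier route excluded 0. Timm22, the core of the inner membrane carrier translocase, was at 0.05 (-0.36 to 0.46). Among the 6 small TIM genes none was called, all 6 intervals held 0, and the median was 0.15. Timm9 and Timm10, which form 1 chaperone complex, were at 0.56 (-0.02 to 1.15) and -0.19 (-0.91 to 0.48). Timm13 was at 0.18 (-0.09 to 0.45), Timm10b at 0.17 (-0.27 to 0.60), Timm8b at -0.42 (-1.12 to 0.24) and Timm8a1, which joins 2 gene identifiers under 1 symbol, at 0.14 (-0.22 to 0.49).

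**Figure D2:**
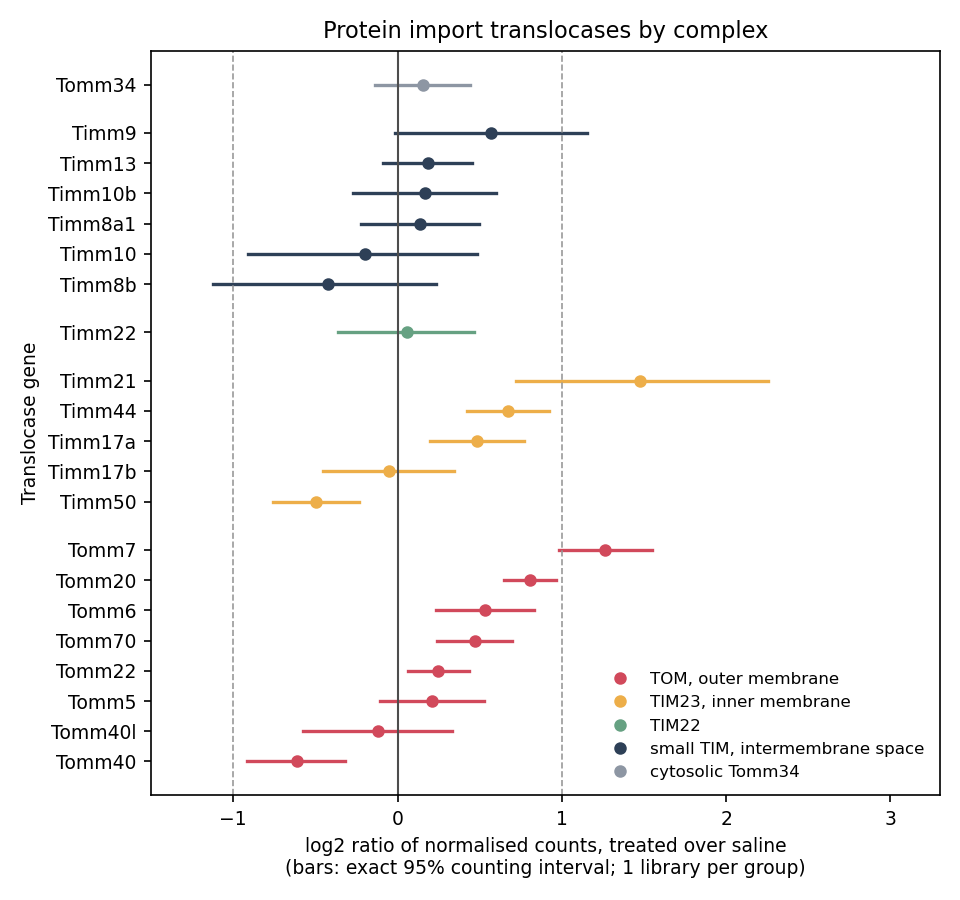
log2 ratio of normalised counts, treated over saline (x axis), for the 21 Timm and Tomm genes (y axis), coloured by complex. Points are single genes with 1 library per group, and bars are exact 95% intervals for counting error. Tomm40 and Timm50 lie below 0, Tomm7, Tomm20, Timm44 and Timm21 above it, and the bars of all 6 small TIM genes cross 0.

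Several members were counted on more than 1 transcript, and 4 in which the transcripts' shares differed are described here, chosen after their values were seen. Of the 93 members, 17 had 2 or more transcripts. For Mrpl14, transcript ENSRNOT00000087528 had 72 saline and 51 treated reads (log2 fold 0.43, interval -0.12 to 0.97), and ENSRNOT00000026716 had 0 and 39. The gene was therefore at 0.43 with its highest transcript alone, and no longer called. For Timm9, ENSRNOT00000088790 had 31 and 0 reads, whereas ENSRNOT00000010871 had 28 and 46 (1.61, interval 0.94 to 2.38). In Mrps24, ENSRNOT00000080848 made up 40.1% of saline reads (32.6 to 48.0) and 7.46% of treated reads (2.47 to 16.6), while the gene as a whole stood at -0.39 (-0.82 to 0.03). In Mrps14, ENSRNOT00000076962 went from 4.29% (1.74 to 8.65) to 23.6% (15.2 to 33.8) of the reads, with the gene at 0.06 (-0.33 to 0.44). How reads shared between overlapping transcripts, or with near-identical copies elsewhere in the genome, were assigned is not stated in the labels or headers.

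**Figure D3:**
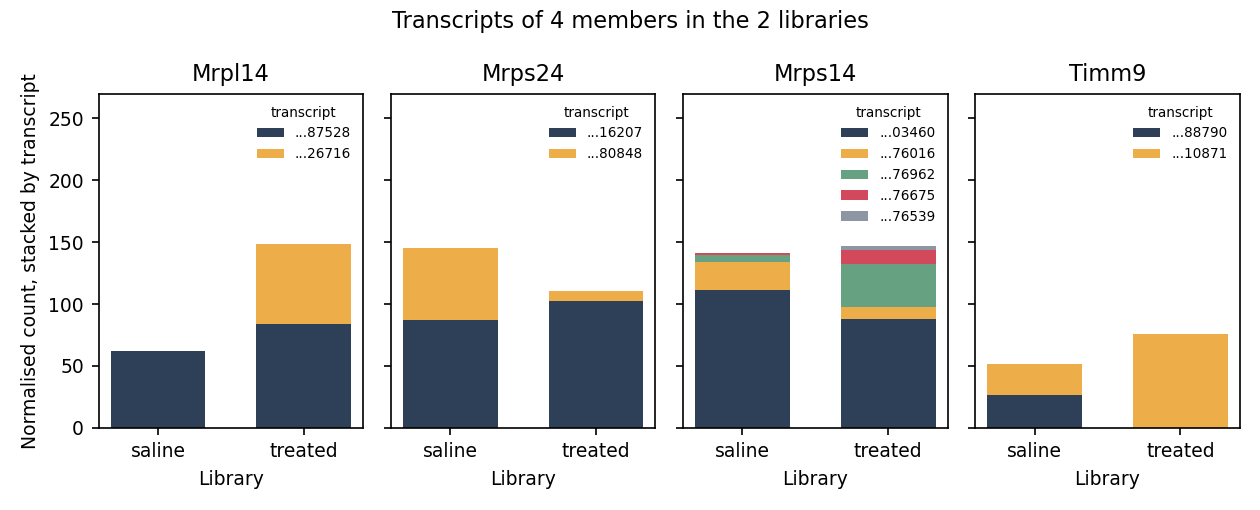
Normalised counts of Mrpl14, Mrps24, Mrps14 and Timm9 (y axis) in the saline and treated libraries (x axis), stacked by transcript, each labelled by the last digits of its identifier. A second Mrpl14 transcript appears in the treated library alone, and 1 of the 2 Timm9 transcripts appears in the saline library alone.

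In the authors' deposited table, none of the 116 member transcripts had a p-value under 0.05, against 65 of all 20367 transcripts. The lowest member value there was 0.13, for Tomm7, and the lowest adjusted p-value in the authors' deposited table was 0.92 for members and for all transcripts alike. None of the 57 transcripts the authors selected in their deposited table belonged to a member.

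Some members have a start that faces the start of a gene on the other strand. Another start faced theirs within 1000 bases in 22 of the 78 members with a promoter (28.2%), against 19.3% of the 6944 well covered symbols with one. Mrps11 and Mrpl46, both ribosomal, have starts 234 bases apart, and stood at -0.94 and -0.02. Mrpl32 faced the proteasome gene Psma2, with 0.85 and 0.79, and Mrpl18 faced the chaperonin gene Tcp1, with 0.70 and 0.60. Mrps18c faced the helicase gene Helq, with 1.32 and -0.63. Timm8b faced Sdhd, a subunit of succinate dehydrogenase, with -0.42 and 0.67. Facing genes thus stood on the same side of 0 in some pairs and on opposite sides in others. Over the 20 pairs with both genes measured, Mrps11 and Mrpl46 entered from either side, the Spearman correlation of the log2 folds was 0.18.

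Further genes of the same pathways were read from lists of the pathway. Their called counts stand against the same backgrounds, 12.1% higher and 19.1% lower over all symbols and 6.85% and 7.4% over the well covered ones. Of the 14 measured factors of mitochondrial translation, 2 were at least 2-fold higher and 1 at least 2-fold lower, with a median of 0.52. Guf1, a GTPase that acts on the ribosome, had normalised counts of 43.4 and 187, at 2.08 (1.61 to 2.62), and the release factor Mtrf1l had 6.94 and 33.0, at 2.10 (1.01 to 3.64, 8 and 20 reads). Taco1, a translational activator of Mt-co1, had 53.8 and 19.8, at -1.40 (-2.47 to -0.53). The abundant elongation factor Tufm was at -0.26 and Lrpprc, which stabilises mitochondrial mRNA, at 0.53. Of the 18 ribosome assembly genes, 1 was higher (Gtpbp10, 1.34) and 1 lower (Mrm3, -1.49), with a median of -0.19, and the best covered ones were Dhx30 (-0.54) and Rbfa (-0.03). The lists together with the members are drawn in the plot of log2 folds by list.

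**Figure D4:**
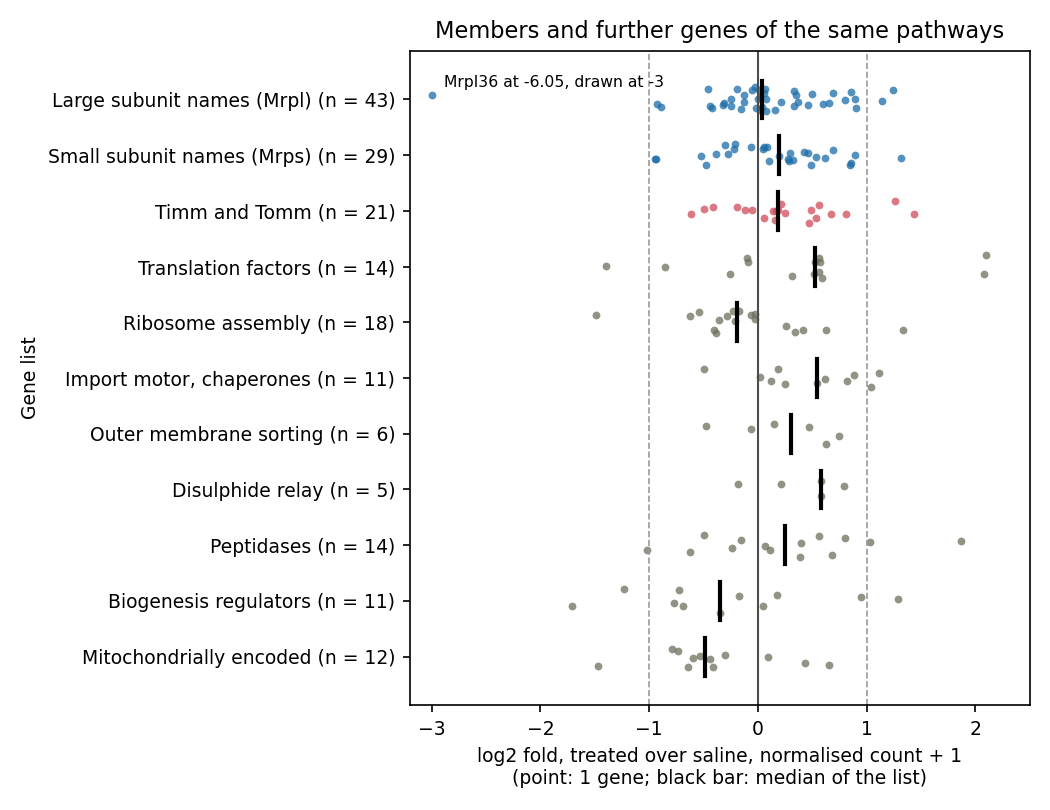
log2 fold of normalised count plus 1, treated over saline (x axis), for members and further lists (y axis), 1 point per gene with the median as a black bar. Medians of the Mrpl, Mrps and Timm and Tomm genes lie between 0 and 0.20. Those of ribosome assembly genes, biogenesis regulators and mitochondrially encoded genes lie below 0, and Mrpl36 is drawn at the left edge.

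On the import side, 2 of 11 genes of the TIM23 motor and the matrix chaperones were at least 2-fold higher and none lower, with a median of 0.54. These were the motor subunits Dnajc15 (1.11) and Dnajc19 (1.04), with 24 and 28 and with 56 and 61 reads. Neither was called with a pseudocount of 5 (0.99 and 0.98), and Dnajc19 was not with library totals made equal (0.99). The motor's HSP70, Hspa9, had normalised counts of 3708 and 4219.96, at 0.19 (0.12 to 0.26), and the matrix chaperonin Hspd1 had 1553 and 2737, at 0.82 (0.72 to 0.92). None of 6 outer membrane sorting and porin genes was called (median 0.31), with Mtx2 at 0.75, Vdac3 at 0.62, Vdac1 at 0.47 and Vdac2 at 0.14, and with Samm50 at -0.06 and Mtx1 at -0.48 (-0.80 to -0.17). None of 5 genes of the disulphide relay and its substrates was called (median 0.58), among them Chchd3 (0.79), Chchd2 (0.58) and Aifm1 (0.58). Of 14 peptidases, 2 were higher and 1 lower (median 0.25). The inner membrane protease Yme1l1 had 122 and 448, at 1.86 (1.57 to 2.18), Oma1 was at 1.03 (0.32 to 1.80), and the intermembrane space protease Htra2 had 326 and 160.2, at -1.02 (-1.36 to -0.70). Oma1 was not called with a pseudocount of 5 (0.94) or with equal totals (0.98), nor Htra2 with scaling by the median of ratios (-0.9986). The presequence peptidase subunit Pmpcb was at 0.56 and the matrix protease Lonp1 at -0.15.

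Regulators of mitochondrial biogenesis went both ways. Of 11 measured, 1 was at least 2-fold higher and 2 at least 2-fold lower, with a median of -0.35. Gabpa, the ETS factor whose motif was searched above, had normalised counts of 171 and 418, at 1.29 (1.02 to 1.57). The coactivator Pprc1 had 576 and 244, at -1.23, and Myc had 1273 and 389.8, at -1.71 (-1.91 to -1.51). Nrf1 stood at -0.77 and Yy1 at 0.05. For the 12 measured mitochondrially encoded genes, whose mRNAs this ribosome translates, none was higher and 1 was lower, Mt-atp6 at -1.47 (-1.54 to -1.39). Their median was -0.49, while their summed counts gave a log2 ratio of 0.26 (0.25 to 0.27). The sum differs in sign from the median because Mt-co1, at 0.66 (0.64 to 0.67), holds 105881 of the 186511 saline reads of the list. Mt-cyb was at -0.54.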

How the data were processed

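Strand-specific TruSeq libraries were made from total RNA, per the labels' protocols. Tools listed in the submitters' processing notes, with no role or order, are STAR 2.5, DESeq 1.22.1, Cuffnorm and FastQC. No source used here gives the genome build or how reads were counted. Each transcript has a log2 value in the authors' deposited table. After undoing the logarithm and taking off 1, 100% of the values were whole multiples of 1 step per library within 1e-06 reads, which gave the reads and size factors (1.15 saline, 0.605 treated). The authors' deposited p-values are quoted as listed. A further 4 columns of per-sample values were not used.

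Values were summed over transcripts by symbol; 1276 transcripts without a symbol were left out. Members and lists (15 lists, 202 genes, 186 with a row) were chosen with earlier results of these data known. Named were all translocases, Mrpl and Mrps genes that were called, the 6 highest and lowest folds and the 6 highest means, and in each further list the called genes, or else the 2 largest differences, and the 2 highest means; other genes named were chosen after their values were seen. The code was run on simulated data (15409 symbols, 200 of them changed by a log2 fold of 1.5): 99% passed the size rule and 96.4% of intervals held the true ratio. The simulated counts had counting error alone, which the intervals assume, so spread between cultures was not examined. The changed symbols all had means of at least 50, a level that the called genes Mrps18c, Mrpl36 and Timm21 do not reach. Alternatives were another pseudocount, other filters, 3 scalings, the highest transcript or protein coding transcripts alone, and other member sets. Versions were pandas 2.3.3, SciPy 1.17.1, NumPy 2.4.6 and Matplotlib 3.10.9 under Python 3.11.15.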

Additional observations from a re-analysis of the deposited data

How the results depend on the processing

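With 1 library per group, no spread between cultures is known, and the depth of the treated library limits single genes: Mrps18c rested on 10 and 14 reads. Mrpl and Mrps genes called higher numbered 2 rather than 3 when a normalised count of at least 50 was required in at least 1 library. Mrpl36 and Timm21 passed that filter, although their means over both libraries were 32.5 and 42.7. With the highest transcript alone, Mrpl and Mrps genes called higher also numbered 2, and translocases called higher numbered 3 rather than 2. When both libraries were scaled to 1 total, which shifts log2 folds by -0.05, the Mrpl and Mrps median was 0.019 and their summed log2 ratio 0.015. Without Tomm20 and Tomm7 the summed translocase ratio was 0.17. The difference between the medians of the groups lay between -0.15, with the highest transcript alone, and -0.11. With that transcript alone Mrpl14 (0.43) was no longer called, while Timm9 (1.61) and Ptcd3 (1.87) were. Dnajc15 (0.99) with a pseudocount of 5 was no longer called. Dnajc19 (0.98 and 0.99) and Oma1 (0.94 and 0.98) were no longer called with that pseudocount and with equal totals, and Htra2 (-0.9986) with the median of ratios. No named gene that was called changed sign. No paired analysis was possible because each group has a single library.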
